A study of Mus musculus with 12 samples.

Results

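The genes described here encode potassium channels and voltage-gated calcium channels, and their transcripts were measured in whole adrenal glands of 2 mouse strains. They were taken as every gene whose symbol starts with Kcn or Cacn and that has a probeset naming that gene alone, with Kcnk9 left out and with the brightest probeset kept per gene. The rule used no comparison between groups and gave 42 genes, from 46 probesets, of the 6986 genes named in the table. Adrenal RNA came from male KK/HIJ (KK-M), female KK/HIJ (KK-F), male C57BL/6J (C57-M) and female C57BL/6J (C57-F) mice. All 4 groups lived on standard chow, went through glucose, insulin tolerance and behavioral tests, and were killed at 21 weeks of age by the labels. KK/HIJ is an inbred strain prone to obesity and insulin resistance, and C57BL/6J is the common laboratory strain. For each group the RNA of all its mice was pooled and the pool was put on 3 arrays (Mouse Gene 2.0 ST, 12 arrays in all), so the 3 arrays are repeat measurements of 1 pool. The errors and p-values below therefore cover the spread between arrays and not the spread between mice.

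Potassium channels let potassium leave the cell and hold its membrane voltage negative, while voltage-gated calcium channels open when the voltage rises and admit the calcium that triggers secretion. In the adrenal cortex the glomerulosa cell rests on potassium leak through two-pore channels, and calcium entry then drives aldosterone synthesis. In the medulla the chromaffin cell fires action potentials, and calcium entering through channels such as Cav1.3, whose pore is Cacna1d, drives catecholamine release. Each channel is a pore protein, often joined by auxiliary subunits that set its surface number and gating.

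Values are on the log2 scale of robust multi-array average (RMA) expression, where 1 unit is a doubling. Of the 42 genes, 26 had a mean of at least 4 in at least 1 group and were tested, and the other 16 were not. Among those 16, 10 had all 12 values under 4. Cacna1s passed through KK-M alone, Kcnb2 through KK-F alone and Kcnt2 through C57-M alone, so these 3 entered the test because of the group in which each was highest. A gene was called when its limma fold was at least 1.4 (0.49 on the log2 scale) with a Benjamini-Hochberg adjusted p under 0.05 over all 4414 genes tested. The genes lie on chromosomes 1, 10, 11, 12, 14 and 15, and channel genes on other chromosomes were not analysed here.

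The array medians over all probesets lay between 3.88 and 3.99, and arrays of the same group correlated at 0.9859 to 0.9938. The residual SD over all genes was 0.204 in KK-M, 0.16 in KK-F, 0.154 in C57-M and 0.167 in C57-F. The cortex marker measured here, Cyp11b1, the last enzyme of glucocorticoid synthesis, had means of 12.46 in KK-M, 12.47 in KK-F, 12.59 in C57-M and 12.83 in C57-F. In KK-M all 9 skeletal muscle markers tested exceeded both C57-M and KK-F, and most of them passed the filter through KK-M alone. All 7 hepatocyte markers were lower in KK-M than in C57-M and in KK-F than in C57-F. The part of such tissue in each pool was not tested. In whole tissue, fewer cells of a type and less RNA per cell cannot be told apart.

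In total 13 channel genes were called in at least 1 comparison. In the strain comparison of males (KK-M v C57-M) 6 of the 26 genes tested were higher and 2 lower, where 20.4% of all genes tested were called, 7.05% higher and 13.4% lower. In females (KK-F v C57-F) 9 channel genes were higher and none was lower, where 18.6% of all genes were called, 9.56% higher and 9.06% lower. Cacna1d, Cacnb1, Kcnip1, Kcnk2 and Kcnh3 were higher in KK/HIJ in both sexes, which is 19.2% of the channel genes tested, against 3.44% of all genes tested. No channel gene was lower in KK/HIJ in both sexes, where 5.17% of all genes were. Over all 42 genes, without the filter on low values, the median strain difference was 0.12 in males and 0.07 in females, beside 0.01 and 0.01 over all 6986 genes. The strain difference was above 0 for 29 of the 42 genes in males and 31 in females, where 51.6% and 51.4% of all genes were above 0. The array values of the 2 strains did not overlap for 15 of the 42 genes in males and 14 in females, where 36.1% and 35.2% of all genes did not overlap. With no filter on low values all 42 genes could be called, and the counts were 8 higher and 1 lower in KK-M v C57-M (4.85% and 8.63% of all 6986 genes) and 9 higher and 0 lower in KK-F v C57-F (6.11% and 5.93%).

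**Figure D1:**
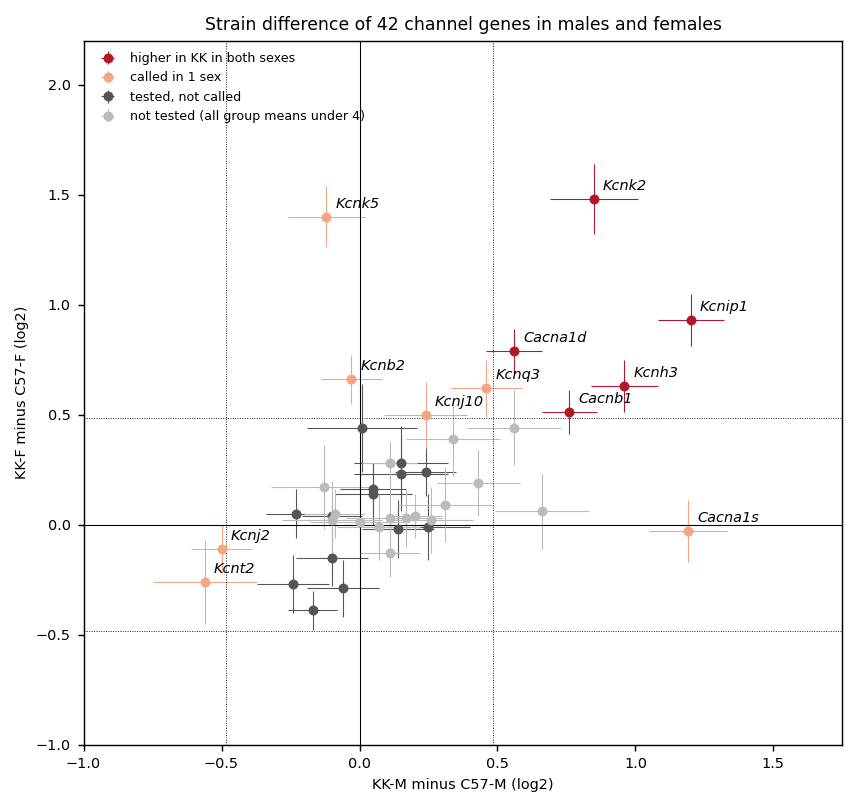
Strain difference of each of the 42 channel genes in males (horizontal axis, KK-M minus C57-M, log2) and in females (vertical axis, KK-F minus C57-F, log2), with bars of 1 SE and dotted lines at the 1.4-fold threshold. The 5 genes higher in KK/HIJ in both sexes sit at the upper right, Kcnk5 high on the female axis at 1.4, and Cacna1s far out on the male axis at 1.19.

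Sequence before the transcription start is shown for 4 of the 5 genes higher in KK/HIJ and for Kcnk5 and Cacna1s, which had the largest strain-by-sex interactions (strain difference in males minus that in females), because genes that move together can be compared for what their starts share. The stretches are 250 bases before the start farthest upstream, from RefSeq (GRCm38.p6, the C57BL/6J sequence), 5′ to 3′ on the gene's strand. Of the 42 genes 33 were matched to a RefSeq start, and Kcnh3 was not. Capitals mark matches to the GC box GGGCGG, the TATA box TATAAA, the cyclic AMP response element TGACGTCA, the steroidogenic factor 1 site CAAGGTCA and the E box CAGCTG, searched for on both strands.
Cacna1d, chr14:30491157-30491406, minus strand: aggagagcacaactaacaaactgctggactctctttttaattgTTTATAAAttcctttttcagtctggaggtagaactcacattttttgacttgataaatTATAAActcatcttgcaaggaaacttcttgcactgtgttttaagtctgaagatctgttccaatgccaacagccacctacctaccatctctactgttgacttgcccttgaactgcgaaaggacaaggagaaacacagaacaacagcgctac
Cacnb1, chr11:98022628-98022877, minus strand: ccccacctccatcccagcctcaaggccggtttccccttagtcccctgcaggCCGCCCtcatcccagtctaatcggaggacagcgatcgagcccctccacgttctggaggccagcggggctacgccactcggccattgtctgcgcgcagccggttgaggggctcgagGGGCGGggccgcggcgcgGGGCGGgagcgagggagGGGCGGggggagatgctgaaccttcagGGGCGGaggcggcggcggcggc
Kcnip1, chr11:33993194-33993443, minus strand: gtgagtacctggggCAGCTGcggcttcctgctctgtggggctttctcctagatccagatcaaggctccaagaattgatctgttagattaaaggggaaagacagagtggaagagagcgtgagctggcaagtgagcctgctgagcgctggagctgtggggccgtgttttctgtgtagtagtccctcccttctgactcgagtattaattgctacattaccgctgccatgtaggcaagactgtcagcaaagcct
Kcnk2, chr1:189402274-189402523, minus strand: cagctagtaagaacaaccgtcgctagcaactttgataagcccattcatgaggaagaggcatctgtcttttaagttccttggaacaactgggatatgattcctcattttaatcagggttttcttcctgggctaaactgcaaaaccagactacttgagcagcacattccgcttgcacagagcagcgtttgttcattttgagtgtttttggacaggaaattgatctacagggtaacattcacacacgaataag
Kcnk5, chr14:20181783-20182032, minus strand: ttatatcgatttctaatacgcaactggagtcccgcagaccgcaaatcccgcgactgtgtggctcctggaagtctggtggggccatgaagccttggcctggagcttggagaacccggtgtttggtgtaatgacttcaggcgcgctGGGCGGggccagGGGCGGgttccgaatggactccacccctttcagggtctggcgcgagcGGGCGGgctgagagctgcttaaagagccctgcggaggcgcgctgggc
Cacna1s, chr1:136052561-136052810, plus strand: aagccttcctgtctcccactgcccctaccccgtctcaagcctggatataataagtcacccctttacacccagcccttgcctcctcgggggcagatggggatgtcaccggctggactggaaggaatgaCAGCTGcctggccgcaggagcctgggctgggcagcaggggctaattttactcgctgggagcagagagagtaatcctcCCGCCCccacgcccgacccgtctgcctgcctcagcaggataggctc
No motif was shared by all 4 of the first genes. GGGCGG occurred 5 times before Cacnb1, 3 times before Kcnk5 and once before Cacna1s, where 32.7% of 32851 windows of this length hold it. Cacna1d held 3 matches to TATAAA, 2 of which overlap on opposite strands, where 12.4% of windows hold it. CAGCTG stood once before Kcnip1 and once before Cacna1s (13% of windows), and Kcnk2 held no match. Neither TGACGTCA (1.55% of windows) nor CAAGGTCA (1.33%) was found in the 6 stretches. The base composition also differed, at 39.6% G and C for Cacna1d, 42.4% for Kcnk2, 52.8% for Kcnip1, 62.4% for Cacna1s, 62.8% for Kcnk5 and 73.2% for Cacnb1, where the median window has 52.4%. A match describes the letters only, and which start the adrenal uses was not tested.

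The calcium channel pores divided into 1 gene with a strain difference in both sexes, 1 that stood out in KK-M and 3 that were not tested. Cacna1d read 7.17, 7.41 and 7.31 in KK-M, 6.87, 6.91 and 7.02 in KK-F, 6.78, 6.70 and 6.71 in C57-M and 6.34, 6.08 and 6.01 in C57-F. Every KK/HIJ array lay above every C57BL/6J array of either sex, and within each strain every male array lay above every female array. The KK-M v C57-M difference was 0.56 ± 0.10 (SE, n = 3 arrays a group; 1.48-fold; limma adjusted p = 9.28e-04) and the KK-F v C57-F difference 0.79 ± 0.10 (limma adjusted p = 7.4e-05). Cacna1d was also higher in C57-M than in C57-F by 0.59 ± 0.10 (limma adjusted p = 6.72e-04), while KK-M v KK-F gave 0.36, below the fold threshold (limma adjusted p = 0.0146).

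Cacnb1, the gene with 5 GC boxes before its start, encodes a beta subunit, which carries the pore to the membrane, and was first known from skeletal muscle. It read 6.42, 6.54 and 6.65 in KK-M, 6.33, 6.31 and 6.26 in KK-F, 5.66, 5.80 and 5.86 in C57-M and 5.74, 5.72 and 5.90 in C57-F, with no overlap between the strains. The strain difference was 0.76 ± 0.09 in males (1.70-fold; limma adjusted p = 4.33e-05) and 0.51 ± 0.09 in females (limma adjusted p = 9.45e-04). Without C57-F replicate 2 the female difference was 0.48, just under the fold threshold. The other 3 genes tested that are grouped as auxiliary by their symbols, Cacna2d3, Cacng2 and Cacng4, were called in no comparison. Cacna2d3 encodes an extracellular alpha2-delta subunit, and its 12 values ran from 4.35 to 4.80 with overlapping groups. Cacng2 had a second, dimmer probeset whose strain differences were -0.17 in males and -0.14 in females, where the probeset used gave 0.05 and 0.14.

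Among the pores that were not tested, Cacna1g, the T-type pore known from glomerulosa cells, ran from 2.61 to 3.19. Cacna1e, the R-type pore, ran from 2.88 to 3.87, and its highest value was 1 KK-M array. Such values are near the floor of the arrays, and a change there would be hard to see. Cacna1i, another T-type pore, read 3.90, 3.89 and 3.86 in KK-M against 3.51, 3.25 and 3.22 in C57-M. With no filter on low values it was called higher in KK-M, by 0.56 ± 0.17 (limma adjusted p = 0.0385), where 4.85% of all genes were called higher that way.

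Kcnip1, a calcium-binding partner of the Kv4 potassium channels, had, with Cacna1s, the widest strain difference of the channel genes in males. Kcnip1 read 7.15, 7.25 and 7.17 in KK-M, 6.98, 7.05 and 7.05 in KK-F, 6.01, 5.82 and 6.14 in C57-M and 6.17, 5.82 and 6.30 in C57-F. The lowest KK/HIJ array (6.98) lay above the highest C57BL/6J array (6.30), and the sexes overlapped in C57BL/6J. The difference was 1.20 ± 0.12 in males (2.30-fold; limma adjusted p = 8.72e-06) and 0.93 ± 0.12 in females (limma adjusted p = 7.67e-05). Its genomic neighbour Kcnmb1, with no protein-coding gene between them in RefSeq, was not tested, and its values ran from 3.42 to 3.92.

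Kcnk2, with none of the motifs before its start, encodes TREK-1, a two-pore leak channel opened by stretch and lipids and known in bovine adrenal cells as a target of corticotropin and angiotensin. It read 5.90, 6.30 and 6.40 in KK-M, 6.48, 6.78 and 6.40 in KK-F, 5.47, 5.11 and 5.49 in C57-M and 4.83, 5.19 and 5.19 in C57-F. All 6 KK/HIJ arrays lay above all 6 C57BL/6J arrays. The difference was 0.85 ± 0.16 in males (1.8-fold; limma adjusted p = 0.00149) and 1.48 ± 0.16 in females (2.79-fold; limma adjusted p = 1.96e-05). The strain-by-sex interaction, the male difference minus the female one, was -0.63 ± 0.23 and did not pass the test (limma adjusted p = 0.0723).

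Kcnh3 encodes a voltage-gated pore of the ether-a-go-go type, best known from forebrain. It read 4.96, 5.03 and 5.27 in KK-M, 4.86, 4.63 and 4.67 in KK-F, 4.18, 3.94 and 4.26 in C57-M and 4.13, 3.95 and 4.22 in C57-F. The strains did not overlap in either sex. The difference was 0.96 ± 0.12 in males (1.94-fold; limma adjusted p = 5.52e-05) and 0.63 ± 0.12 in females (limma adjusted p = 0.0014).

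**Figure D2:**
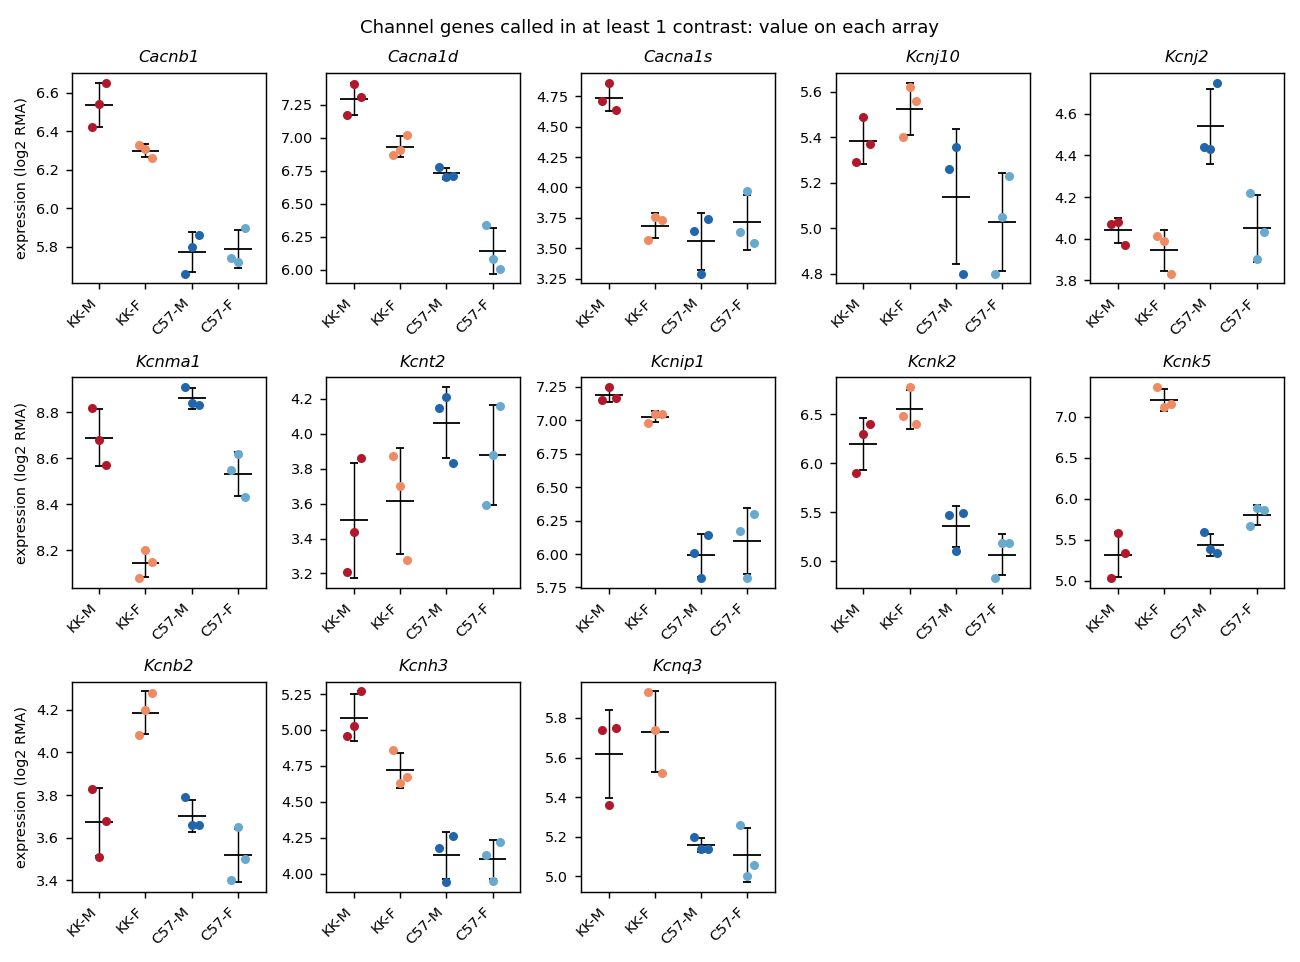
Expression (vertical axis, log2 RMA, own range in each panel) of the 13 called channel genes on each of the 3 arrays of the 4 groups, KK/HIJ first and males before females, with the mean and SD of the arrays as bars. Both KK/HIJ groups lie above both C57BL/6J groups for Cacna1d, Cacnb1, Kcnip1, Kcnk2 and Kcnh3, whereas Kcnk5 stands out in KK-F and Cacna1s in KK-M.

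The chromaffin cell markers shared the direction of the strain difference of these 5 genes, and not the sex pattern of all 5. Of 6 chromaffin markers tested, 4 were called higher by strain in males and 5 in females, and none was lower. The mean of the 7 markers measured ran from 8.31 to 8.44 in KK-M, from 8.12 to 8.17 in KK-F, from 7.60 to 7.72 in C57-M and from 7.29 to 7.44 in C57-F. Pnmt, which makes adrenaline, was higher by 1.12 ± 0.08 in males and 0.93 ± 0.08 in females (limma adjusted p = 4.79e-07 and 2.42e-06). Nefl, a neurofilament subunit, was higher by 1.37 ± 0.18 in males and 1.51 ± 0.18 in females (limma adjusted p = 1.04e-04 and 4.72e-05), and Chga, a protein of the secretory granule, gave 0.45 and 0.48, under the fold threshold. Nefl, which is among the markers counted as called, averaged 4.98 in KK-M, 4.82 in KK-F, 3.62 in C57-M and 3.31 in C57-F. It thus passed the filter only through the KK/HIJ groups, where it was high. Nefm, at 3.40 in KK-M, 3.70 in KK-F, 3.09 in C57-M and 3.00 in C57-F, was not tested. The part of medullary cells in the channel differences was not tested.

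Some excitability genes outside the Kcn and Cacn names also differed by strain. Among all genes tested, 7.05% were called higher in KK-M v C57-M, 9.56% in KK-F v C57-F and 3.44% in both. Of 5 sodium, leak and pacemaker channel genes measured, 3 were higher in KK/HIJ in both sexes and none was lower. These were the sodium leak channel Nalcn (0.67 ± 0.09 in males, 0.83 ± 0.09 in females) and its partners Unc79 (0.84 ± 0.10 and 0.92 ± 0.10) and Unc80 (1.25 ± 0.10 and 1.16 ± 0.10), with Nav1.6 (Scn8a) and Hcn2 not called. Among 7 genes tested from a list of channel-associated proteins, which also holds Rab3gap1, 3 were higher in KK/HIJ in both sexes. They were Stac2, which binds L-type calcium channels (0.91 in males, 0.75 in females), the scaffold Akap6 (0.90 and 0.64) and ankyrin G, Ank3 (0.91 and 0.72). Of 8 genes of calcium stores and calcium response tested, 2 were higher in KK/HIJ in males and 1 in females. Ryr2, the calcium release channel of internal stores, was higher by 0.77 ± 0.09 in males and 0.84 ± 0.09 in females (limma adjusted p = 2.36e-05 and 1.15e-05), and Casq1 was the other gene in males. Casq1 is also one of the skeletal muscle markers. Its mean was 5.55 in KK-M and 3.08 to 3.31 in the other groups, so it passed the filter through KK-M alone. Of 8 chloride and transient receptor potential channel genes measured, only 3 were tested. None of them was called higher in KK/HIJ, and 1 was lower in males (Ano6, -0.51). These lists were drawn up with earlier results of the data known.

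The remaining strain differences were called in 1 sex. Kcnq3, a subunit of the M-current that damps repeated firing, read 5.74, 5.36 and 5.75 in KK-M, 5.93, 5.74 and 5.52 in KK-F, 5.20, 5.14 and 5.14 in C57-M and 5.26, 5.0 and 5.06 in C57-F. It was called in females (0.62 ± 0.13; limma adjusted p = 0.0025), and in males it gave 0.46 ± 0.13, under the fold threshold (limma adjusted p = 0.0155). Its relative Kcnq5 had values from 4.22 to 4.46 in KK/HIJ and from 3.90 to 4.25 in C57BL/6J, and was not called, and its second probeset gave strain differences of 0.13 in males and -0.02 in females. Kcnj10, an inward rectifier known from glia, read 5.29, 5.49 and 5.37 in KK-M, 5.40, 5.62 and 5.56 in KK-F, 5.26, 5.36 and 4.80 in C57-M and 4.80, 5.05 and 5.23 in C57-F. The strains overlapped in males but not in females, and it was called in females (0.50 ± 0.15; limma adjusted p = 0.0204) and not in males (0.24; limma adjusted p = 0.237). Without KK-F replicate 2, KK-F replicate 3 or C57-F replicate 1 the female difference was 0.45, 0.48 and 0.38, each no longer called.

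Kcnj2, the Kir2.1 inward rectifier that fixes the resting voltage, was lower in KK-M. It read 4.07, 4.08 and 3.97 in KK-M, 4.01, 3.99 and 3.83 in KK-F, 4.44, 4.43 and 4.75 in C57-M and 4.22, 3.90 and 4.03 in C57-F, so C57-M stood above the other 3 groups. The KK-M v C57-M difference was -0.50 ± 0.11 (1.41-fold lower; limma adjusted p = 0.004), and C57-M exceeded C57-F by 0.49 ± 0.11 (limma adjusted p = 0.00431). Both lay at the threshold: the strain difference was -0.46 without KK-M replicate 3 and -0.40 without C57-M replicate 3, and the sex difference 0.39, 0.42 and 0.48 without C57-M replicate 3, C57-F replicate 2 and C57-F replicate 3, none of them called.

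Kcnt2, a sodium-activated channel, read 3.21, 3.44 and 3.86 in KK-M, 3.87, 3.70 and 3.28 in KK-F, 4.15, 4.21 and 3.83 in C57-M and 3.59, 3.88 and 4.16 in C57-F, and the groups overlapped. The KK-M v C57-M difference was -0.56 ± 0.20 (limma adjusted p = 0.0457). It was no longer called without KK-M replicate 1 (-0.41), KK-M replicate 2 (-0.53), KK-F replicate 2 (-0.56), C57-M replicate 1 (-0.52) or C57-F replicate 2 (-0.56), and without C57-M replicate 2 it did not pass the filter. Its adjusted p was 0.0652 with no filter on low values and 0.0657 with the replicate number as a block, and it was called in neither. For Kcnq3, Kcnj10, Kcnj2 and Kcnt2 the test of the difference between the sexes (interactions from -0.39 to -0.16) was not passed.

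**Figure D3:**
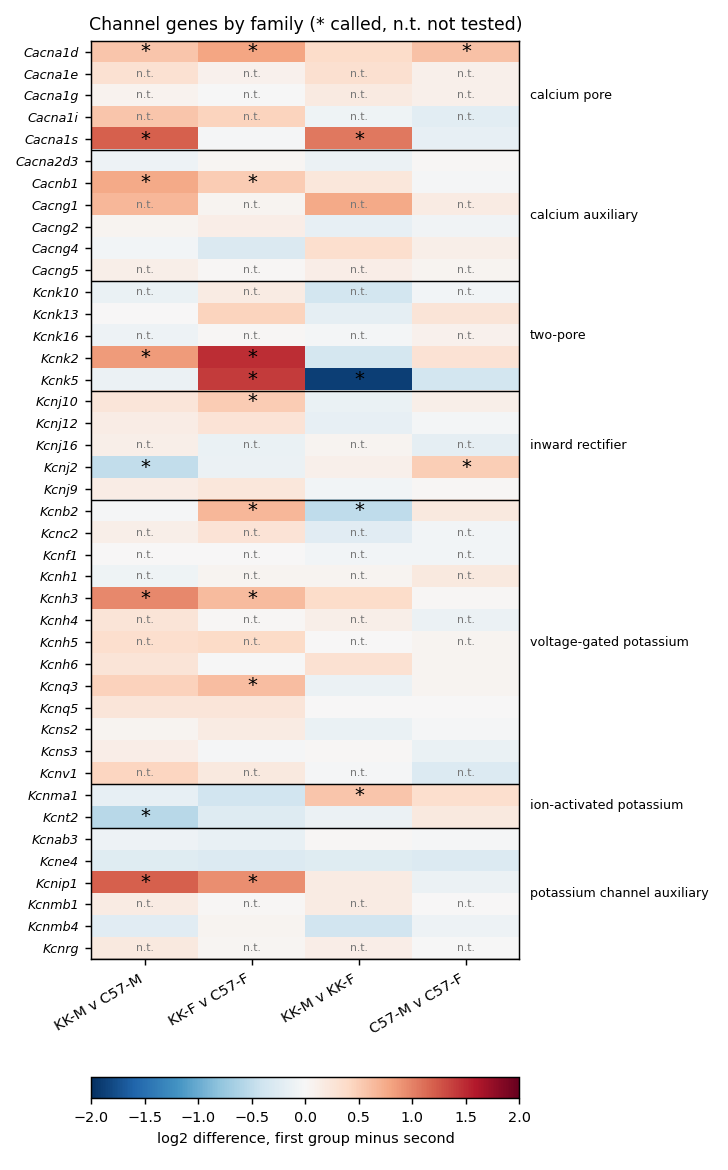
Log2 difference (colour) of the 42 channel genes, in rows by family, in the 4 pairwise comparisons (columns, group named first minus the other), with asterisks on called genes and n.t. on genes not tested. Most rows are pale, and the colours of Kcnk5, Kcnk2, Kcnip1 and Cacna1s stand out, down to -1.89 for Kcnk5 in KK-M v KK-F.

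Kcnk5, which encodes TASK-2, a two-pore leak channel sensitive to extracellular pH, differed by sex and strain together. It read 5.03, 5.58 and 5.33 in KK-M, 7.36, 7.11 and 7.15 in KK-F, 5.59, 5.39 and 5.33 in C57-M and 5.66, 5.88 and 5.86 in C57-F. The lowest KK-F array (7.11) lay well above the highest array of the other groups (5.88). KK-M was lower than KK-F by 1.89 ± 0.13 on the log2 scale (3.71-fold; limma adjusted p = 4.79e-07), and KK-F exceeded C57-F by 1.4 ± 0.13 (2.64-fold; limma adjusted p = 6.54e-06). In males the strain difference was -0.12 (limma adjusted p = 0.54), and C57-M v C57-F gave -0.37 (limma adjusted p = 0.0543). The interaction was -1.52 ± 0.19 (limma adjusted p = 1.98e-04). Its neighbour Kcnk16, with no protein-coding gene between them in RefSeq, was not tested and ran from 3.20 to 4.05 with overlapping groups.

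Beside Kcnk5, both X-zone markers measured were highest in KK-F. The X-zone is an inner cortical layer of the mouse adrenal that regresses at puberty in males and persists longer in virgin females. Thrb averaged 6.24 in KK-M, 8.54 in KK-F, 6.17 in C57-M and 7.32 in C57-F, and Akr1c18, which breaks down progesterone, averaged 4.87, 12.27, 3.25 and 8.29 in the same groups. Thrb was higher in KK-F than in C57-F by 1.22 ± 0.11 and did not pass the test between males (0.08 ± 0.11; limma adjusted p = 0.647). Akr1c18 was higher in KK/HIJ in both sexes, by 1.62 ± 0.26 in males (limma adjusted p = 4.43e-04) and 3.98 ± 0.26 in females (limma adjusted p = 2.36e-07), where Kcnk5 gave -0.12 in males. Both markers were lower in C57-M than in C57-F, by 1.16 for Thrb and 5.03 for Akr1c18. The mean of the 2 markers ran from 5.23 to 6.07 in KK-M, 10.36 to 10.44 in KK-F, 4.55 to 4.80 in C57-M and 7.75 to 7.89 in C57-F. The part of X-zone cells in the Kcnk5 difference was not tested.

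**Figure D4:**
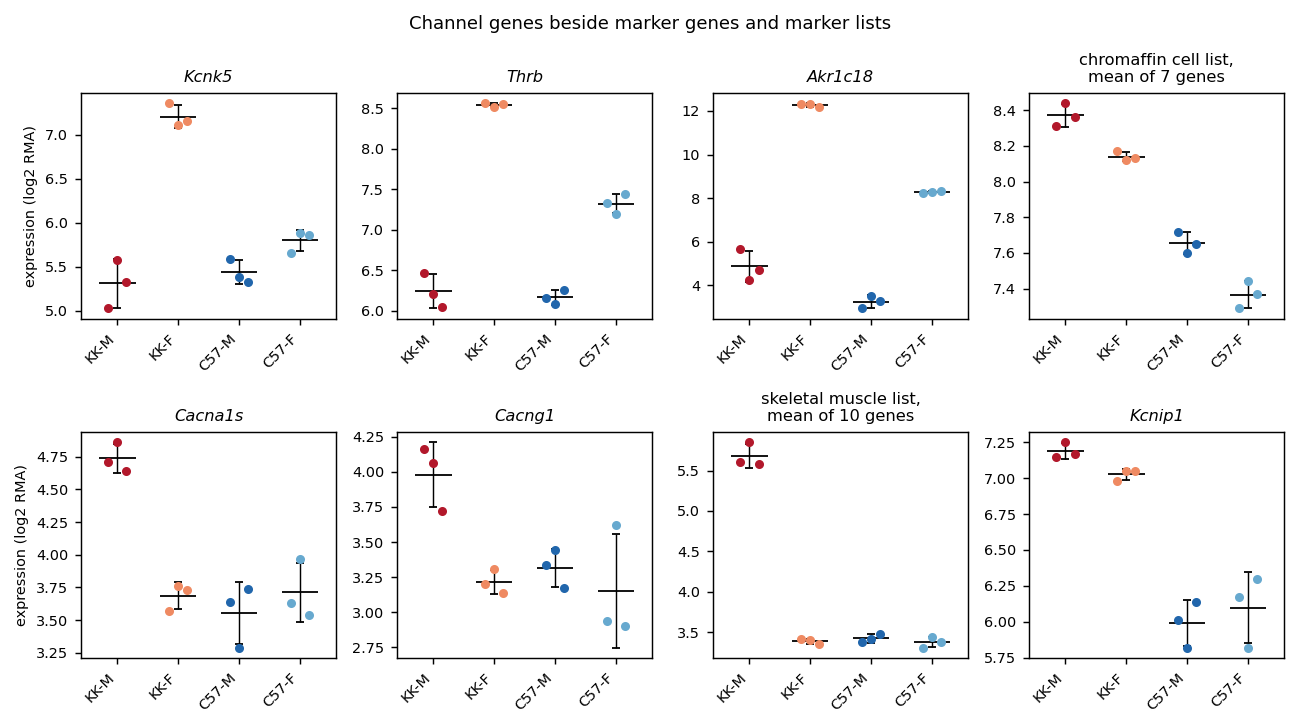
Expression (vertical axis, log2 RMA, own range in each panel) on each array of the 4 groups, KK/HIJ first and males before females, for Kcnk5, Cacna1s, Cacng1 and Kcnip1, the X-zone markers Thrb and Akr1c18, and the mean of the chromaffin and skeletal muscle marker lists, with mean and SD as bars. Kcnk5 and both X-zone markers are highest in KK-F, and Cacna1s, Cacng1 and the muscle list are highest in KK-M.

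Cacna1s encodes Cav1.1, the voltage sensor of skeletal muscle contraction. It passed the filter through KK-M alone, and its means in the other groups were under 4. It read 4.71, 4.86 and 4.64 in KK-M, 3.57, 3.76 and 3.73 in KK-F, 3.64, 3.29 and 3.74 in C57-M and 3.63, 3.97 and 3.54 in C57-F. KK-M stood above all 9 other arrays, by 1.19 ± 0.13 over C57-M (2.27-fold; limma adjusted p = 2.89e-05) and by 1.05 ± 0.13 over KK-F (limma adjusted p = 7.65e-05), and the interaction was 1.22 ± 0.19 (limma adjusted p = 0.00109). Cacng1, the gamma subunit of the same muscle channel, read 4.16, 4.06 and 3.72 in KK-M, 3.20, 3.31 and 3.14 in KK-F, 3.34, 3.44 and 3.17 in C57-M and 2.94, 3.62 and 2.90 in C57-F, and its means were under the filter. With no filter it was higher in KK-M by 0.66 ± 0.17 over C57-M (limma adjusted p = 0.0165) and by 0.76 ± 0.17 over KK-F (limma adjusted p = 0.00688).

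The skeletal muscle markers moved with both genes. In KK-M all 9 tested exceeded C57-M and all 9 exceeded KK-F, and their 10-gene mean ran from 5.58 to 5.85 in KK-M, 3.35 to 3.41 in KK-F, 3.38 to 3.48 in C57-M and 3.31 to 3.44 in C57-F. The myosin Myh8 was 4.42 ± 0.15 above C57-M in the KK-M pool, and Casq1, which stores calcium in muscle, by 2.24 ± 0.12. Of the 10 markers 1 had a mean under 4 in KK-M, against 7 in each of the other groups, while Tcap, Mybpc1 and Myl1 were at 4.11 to 4.99 in those groups. Myh1, Myh4, Myh8, Actn2, Casq1 and Myoz1 passed the filter through KK-M alone, so they were tested because KK-M was high. The heavy chain Myh2, which was not tested, did not share the pattern, with means of 3.47 in KK-M, 3.48 in KK-F, 3.08 in C57-M and 3.07 in C57-F. All 3 KK-M arrays hold 1 RNA pool, so muscle tissue in that pool and a property of male KK/HIJ adrenals cannot be told apart.

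Sex comparisons called 15.4% of the channel genes tested in KK/HIJ and 7.69% in C57BL/6J, near the shares of all genes. In KK-M v KK-F 2 channel genes were higher, Cacna1s and Kcnma1, and 2 were lower, Kcnk5 and Kcnb2, where 18.8% of all genes were called, 7.27% higher and 11.6% lower. In C57-M v C57-F 2 were higher, Cacna1d and Kcnj2, and none was lower, where 7.07% of all genes were called, 4.33% higher and 2.74% lower. The array values of the sexes did not overlap for 12 of the 42 genes in KK/HIJ and 7 in C57BL/6J, where 33.9% and 25% of all genes did not overlap. With no filter 3 were higher and 2 lower in KK-M v KK-F (4.78% and 7.36% of all genes), and 2 higher and 0 lower in C57-M v C57-F (2.76% and 1.69%).

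Kcnma1, the BK channel opened by calcium and voltage together, which sets action potential shape in chromaffin cells, read 8.82, 8.68 and 8.57 in KK-M, 8.08, 8.20 and 8.15 in KK-F, 8.91, 8.84 and 8.83 in C57-M and 8.55, 8.62 and 8.43 in C57-F. Males lay above females in both strains, without overlap. The difference was 0.55 ± 0.09 in KK/HIJ (limma adjusted p = 4.53e-04; 0.48, no longer called, without KK-M replicate 1) and 0.33 in C57BL/6J, under the fold threshold (limma adjusted p = 0.0128). KK-F was below C57-F by 0.39 ± 0.09, also under the fold threshold (limma adjusted p = 0.00473). Kcnmb4, a BK auxiliary subunit, went the other way in KK/HIJ, with 4.01, 4.23 and 4.09 in KK-M against 4.43, 4.51 and 4.52 in KK-F, a difference of -0.38 that did not reach the fold threshold (limma adjusted p = 0.0166). A second Kcnmb4 probeset gave 0.02 for the same comparison.

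Kcnb2 encodes Kv2.2, a delayed rectifier that ends action potentials. It passed the filter through KK-F alone, and its means in the other groups were under 4. It read 3.83, 3.51 and 3.68 in KK-M, 4.08, 4.20 and 4.28 in KK-F, 3.79, 3.66 and 3.66 in C57-M and 3.40, 3.65 and 3.50 in C57-F, and KK-F lay above all other arrays. KK-F exceeded C57-F by 0.66 ± 0.10 (limma adjusted p = 3.43e-04), KK-M was below KK-F by 0.51 ± 0.10 (limma adjusted p = 0.00232), and the males differed by -0.03. Its interaction was -0.70 ± 0.15 (limma adjusted p = 0.00634). The sex difference was -0.43 without KK-M replicate 2 and -0.46 without KK-F replicate 3, neither of them called.

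The interaction was called for 3 channel genes of 26, with Cacna1s above 0 and Kcnk5 and Kcnb2 below it, where 13.9% of all genes were called, 3.81% above 0 and 10.1% below it. With no filter the same counts, 1 above and 2 below, stood beside 2.3% and 5.17% of all genes. For the 5 genes higher in KK/HIJ in both sexes the interaction did not pass the test in this fit, and its values ran from -0.63 for Kcnk2 to 0.33 for Kcnh3.

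The other 13 channel genes tested were called in no comparison. Among them Kcnk13, a two-pore halothane-inhibited channel, gave 0.44 in KK-F v C57-F (limma adjusted p = 0.124). Kcnab3, a beta subunit of Kv channels, gave -0.10 in males and -0.15 in females between the strains, and its second probeset 0.07 and 0.05. Kcne4, an auxiliary subunit that damps Kv channels, gave -0.24 in males and -0.27 in females between the strains (limma adjusted p = 0.18 and 0.133). The silent Kv subunits Kcns2 and Kcns3 ran from 4.79 to 5.27 and from 4.73 to 5.21, with strain differences between -0.02 and 0.16. The inward rectifiers Kcnj9 and Kcnj12 gave strain differences from 0.15 to 0.28 that did not pass the test.

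Zona glomerulosa markers gave a different pattern by strain. Of 4 tested, 2 were lower in KK-M than in C57-M and 2 lower in KK-F than in C57-F, and 2 were higher in males of both strains. The list mean ran from 9.72 to 9.73 in KK-M, 8.85 to 9.0 in KK-F, 10.15 to 10.21 in C57-M and 9.69 to 9.73 in C57-F. Cyp11b2, aldosterone synthase, did not reach the fold threshold between strains (-0.13 in males, -0.28 in females) and was higher in males by 1.0 ± 0.09 in KK/HIJ and 0.85 ± 0.09 in C57BL/6J. The part of glomerulosa cells in the channel results was not tested.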

How the data were processed

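Pooled adrenal RNA of 4 groups was hybridised to 3 arrays each. The deposited values are log2 expression, which the authors made by RMA in Partek; no scanner intensities were used. Of 16378 probesets in the table, 7358 named 1 gene and were kept, 456 named several and 8564 had no name in the platform annotation. Probesets of 284 genes with several were reduced to the brightest by the mean of all 12 arrays. All 42 channel symbols matched RefSeq by gene ID.

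Genes with a mean of at least 4 in at least 1 group (4414 of 6986) were fitted with limma 3.58.1 in R 4.3.3, with 1 mean per group over all 12 arrays, empirical Bayes moderation (8 residual and 4.84 prior degrees of freedom) and Benjamini-Hochberg adjustment jointly over the 4 pairwise contrasts, alone for the interaction. Fold of at least 1.4 and adjusted p under 0.05 made a call, after the study's methods. The fit was checked on simulated data. Figures were drawn with matplotlib. Whether KK/HIJ alleles lower the binding of probes designed on C57BL/6J was not tested.

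Every called channel gene was named with all its array values, and Cacna1d, Cacna1g, Cacna1e, Kcnk2, Kcnma1, Kcnq5, Kcnmb4 and Cacna2d3 were named whatever their values; Cacnb3, also on that list, was not analysed here. Of the further excitability lists, up to 4 called genes were named per list and comparison. The members, lists and named genes were chosen with earlier results of these data known. The pools were not replicated, so p-values measure only the spread between arrays. Replicate numbers did not pair arrays across groups. Alternatives tried were other filters, fold thresholds, normalizations, variance models, adjustment within each contrast, mean of probesets, the replicate block, fits of the compared groups alone and leaving out each array.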

Additional observations from a re-analysis of the deposited data

Results flagged for a closer look

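The strain difference differed between the sexes for 3 of 26 channel genes tested (11.5%), by the interaction term of the limma fit across all genes. The same term was called for 13.9% of all genes tested. For Cacna1s the difference in males (1.19) exceeded that in females (-0.03) by 1.22 ± 0.19 (SE; limma adjusted p = 0.00109). For Kcnb2 the difference in males (-0.03) was below that in females (0.66) by a term of -0.70 ± 0.15 (limma adjusted p = 0.00634). For Kcnk5 the difference in males (-0.12) was below that in females (1.4) by a term of -1.52 ± 0.19 (limma adjusted p = 1.98e-04). Each group is 1 RNA pool, and these terms were measured on 3 arrays a pool. Cacna1s and Kcnb2 passed the filter only through the group in which each was highest, and their other group means were under 4. With no filter the terms of Cacna1s and Kcnb2 had limma adjusted p of 0.00171 and 0.0122. The skeletal muscle marker mean, like Cacna1s, was highest in KK-M, and both X-zone markers measured, like Kcnk5, were highest in KK-F. The part of such cells in the differences was not tested.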

How the results depend on the processing

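The 26 calls (13 genes over 5 comparisons) were recomputed under the alternatives, which gave 608 values. Cacna1s, Kcnb2, Kcnj2 and Kcnt2 were not tested, and so had no value, under a group mean of at least 5, nor Kcnt2 without C57-M replicate 2. Of the 608, 568 kept direction and call, 40 lost the call and none turned, and 19 calls were kept under each alternative that gave them a value, except the 2-fold threshold. Channel genes called in KK-M v C57-M numbered 8, with 5 under a group mean of at least 5 and 2 at 2-fold; leaving out 1 array gave 7 to 9. In KK-F v C57-F there were 9, with 2 at 2-fold and 8 to 9 leaving out 1 array. In KK-M v KK-F there were 4, with 2 under a mean of at least 5, 7 with no fold threshold, 2 at 2-fold and 3 to 5 leaving out 1 array. In C57-M v C57-F there were 2, with 1 under a mean of at least 5, 0 at 2-fold and 1 to 2 leaving out 1 array. The interaction had 3, with 1 under a mean of at least 5, 2 at 2-fold and 3 leaving out any array. With an intensity trend in the variance model it had 4, of which 1 was above 0 and 3 below. The added gene was Kcnk2 (-0.63), the only further channel gene tested whose interaction reached the fold threshold. A higher filter tests fewer genes and a higher fold threshold asks for more. Cacnb1 and Kcnj10 in KK-F v C57-F fell under the fold threshold at 0.46 and 0.44 after renewed quantile normalization, and Kcnj10 at 0.48 after median centring.

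Replicate numbers did not pair arrays: 18 same-numbered pairs had correlated deviations from -0.10 to 0.12, with 3 over 0.1. With the replicate block 7 genes were called between strains in males and 9 in females, 4 between sexes in KK/HIJ and 2 in C57BL/6J, and 3 by the interaction, and Kcnt2 in KK-M v C57-M was the only call lost. Values under 4 lie near the floor of the arrays, and 3 arrays of 1 pool limit the precision to that pool.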

Other observations

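Further lists, given as counts of genes called. Of 7 genes tested from the channel-associated list, 2 were higher in KK-M v KK-F (Dlg4, 0.61, and Ank3, 0.58) and 2 in C57-M v C57-F (Dlg4, 0.55, and Rims2, 0.51). Of 8 calcium store and response genes, 2 were higher in KK-M v KK-F (Casq1, also a muscle marker, 2.42, and Camk2b, 0.55) and 1 in C57-M v C57-F (Atp2b4, 0.55). Of 3 chloride and transient receptor potential channel genes, 1 was lower in KK-M v C57-M (Ano6, -0.51). Of 4 macrophage markers, 2 were lower in males between strains, and in females 3 were higher and 1 lower; between the sexes 1 was higher and 1 lower in KK/HIJ and 4 were higher in C57BL/6J. Of 4 white adipocyte markers, 2 were lower in KK/HIJ males and 4 in KK/HIJ females, and 2 were higher in KK-M v KK-F. Of 4 Schwann cell and glia markers, 1 was higher in KK-M v KK-F. Of 7 hepatocyte markers, 2 were higher in KK-M v KK-F and 4 lower in C57-M v C57-F. Their mean was 5.29 on KK-M replicate 1, 4.02 on replicate 2 and 3.92 on replicate 3, against 4.05 to 4.11 in KK-F. Only KK-M replicate 1 lay above KK-F in this mean. The 1 smooth muscle and 2 endothelium markers tested were called in no pairwise comparison. Chromaffin markers were higher for 2 of 6 in KK-M v KK-F and for 0 in C57-M v C57-F, where Chga, Pnmt, Cyb561, Scg2 and Ddc passed an adjusted p of 0.05 below the fold threshold.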
